A study of Drosophila melanogaster with 14 samples.

Results

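The nuclear tRNA genes of Drosophila melanogaster were read out of targeted DamID profiles of the adult midgut. The members were all genes on the chromosome arms whose Release 6 symbol begins with "tRNA:", chosen by name and position and not by any measured value. There were 295 of them, among 17802 genes that lay in at least 1 measured GATC fragment. Of these, 290 are annotated as functional and 5 as pseudogenes. Arm 2R carried 100, 3R 79, 3L 49, 2L 41 and X 26, and there were none on chromosomes 4 and Y.

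The study profiled undissociated midguts with Dam methylase fused to a protein of interest, which methylates GATC sites close to wherever the fusion touches DNA, and compared each fusion with Dam alone. Dam-Pol II was expressed with the esg driver in intestinal stem cells and enteroblasts (ISC/EBs) in 2 samples, and with the Myo1A (myo) driver in absorptive enterocytes (ECs) in 2 samples. Each had 2 samples with Dam alone under the same driver as its control. Dam fused to the TF Sox21a was profiled in ISC/EBs in 3 samples with 3 Dam-only controls, which makes 14 samples in all. All were adult guts, the labels give no age, sex or strain, and neither the labels nor the text used here says how many guts each sample pooled. A driver restricts the fusion to its own cells, so ISCs and EBs cannot be told apart in the esg profiles. The files used here are 3 tracks (Pol II in ISC/EBs, Pol II in ECs and Sox21a in ISC/EBs), each averaged over its samples, and a list of Sox21a peaks. They hold 1 value for each fragment and track, no spread between samples and no depth, and no difference below has a test or a replicate check.

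A tRNA gene is transcribed by Pol III, not Pol II. Its promoter lies inside the gene, where the A and B boxes recruit TFIIIC, which places TFIIIB upstream. Many copies of each tRNA are spread over the genome, singly and in clusters, and many lie inside the introns of coding genes or between closely spaced genes. The Pol II tracks therefore measure Pol II at and around tRNA genes and not their own transcription by Pol III, and the Sox21a track measures how often that TF was close by.

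The level of a gene is the mean log2 ratio of Dam fusion to Dam over its bases, so 0 is the level of Dam alone and 1 is a ratio of 2. A tRNA gene is shorter than most fragments that hold it. The median length was 73 bp (71 to 186 bp), whereas the 352 fragments that touch a tRNA gene had a median of 522.5 bp, against 197 bp over all 383654 fragments. Of the 295 genes, 184 lay in 1 fragment, 100 over 2 and 11 over 3 or 4. In total 59 shared all of their fragments with another tRNA gene, so only 264 sets of fragments were distinct, and those that share a set have identical values by construction. Copies of 1 tRNA are near-identical in sequence. No source used here says how reads that match several copies were placed, so the level of a single copy is uncertain to that extent.

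The Pol II tracks matched their labels, whereas the Sox21a track had no marker of its own to check it by. In the ISC/EB and EC Pol II tracks the TF gene esg reached 3.63 and -0.10, Sox21a 3.46 and -0.43 and the Notch receptor gene N 1.24 and -0.21, whereas the protease genes kappaTry (-0.01 and 3.04), Jon65Aiii (0.03 and 2.91) and Bace (0.01 and 2.68) were high only in ECs. Myo31DF, listed as an EC marker, did not separate them (1.47 and 1.30). The enteroendocrine genes pros, AstA and Tk lay between -0.26 and 0.06 in both Pol II tracks, and Dh31 had 0.58 in ECs. Of the muscle genes, Mhc lay at or below 0, Mef2 had 0.59 and 0.22, and Tm1 1.35 and 0.60.

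tRNA genes had higher levels than genes in general in ISC/EB Pol II and with Sox21a. In ECs the median was also higher, but how the count of high genes compared depended on the scaling. In ISC/EBs the median level was 0.59 (-0.88 to 3.86), against 0.30 over all genes. In ECs it was 0.18 (-0.62 to 3.34), against 0.01. For Sox21a it was 0.52 (-0.44 to 2.58), against 0.10. A level of at least 1 was found for 119 of the 295 tRNA genes in ISC/EBs (40.3%, with 29.4% of all genes as the background), for 53 in ECs (18.0%, with 18.9%) and for 97 with Sox21a (32.9%, with 14.1%). After quantile normalization of the tracks the EC count was 84 (28.5%, with 23.9%), and after each track was centred and scaled over genes it was 80 (27.1%, with 23.1%). On these scales the ISC/EB count was 96 both times (32.5%, with 23% and 22.3%), and the Sox21a count was 99 (33.6%, with 15.4%) and 124 (42.0%, with 20.5%). On the deposited scale the share at or above 1 varied by arm. In ISC/EBs it was 52.0% on 2R, 40.8% on 3L, 36.6% on 2L, 34.2% on 3R and 19.2% on X. With Sox21a it was 46.0%, 36.7%, 19.5%, 27.8% and 11.5% on the same arms. Shares of all genes by arm were not computed. No tRNA gene had a level of -1 or lower, which is rare for any gene (0.0674%, 0.0786% and 0.0112% of all genes). tRNA genes were flat less often than genes in general. In total 159 were below 1 in all 3 tracks (53.9%, with 66.1% of all genes), 73 of them within 0.25 of 0 in every track (24.7%, with 30.4%), and 38 were at or above 1 in all 3 (12.9%, with 8.44% of all genes).

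**Figure D1:**
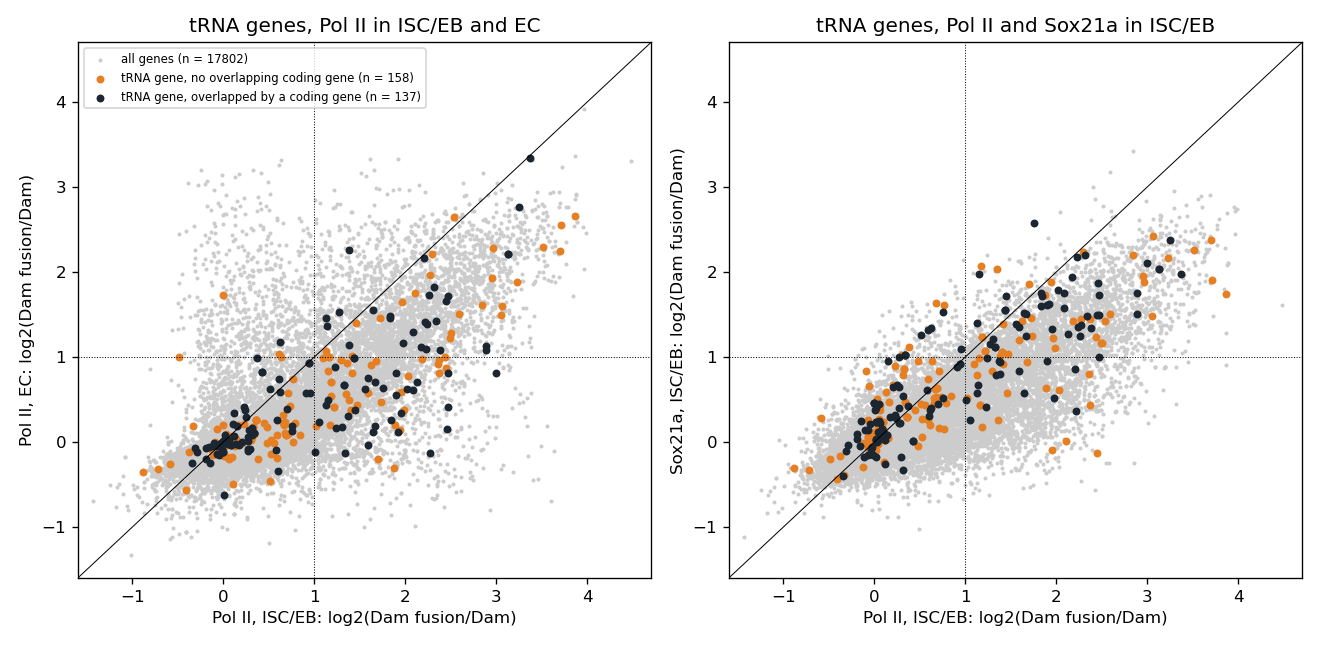
Level of each tRNA gene (log2 Dam fusion/Dam) in ISC/EB Pol II against EC Pol II (left) and against Sox21a (right), with tRNA genes overlapped by a coding gene in black, other tRNA genes in orange and all 17802 genes in grey. Dotted lines mark a level of 1 and the solid line equal values. Of the tRNA genes, 119 lie right of 1 in ISC/EBs, 53 lie above 1 in ECs and 97 above 1 with Sox21a, and the cloud near 0 holds the 73 that were flat in every track.

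Most genes are far longer than a tRNA gene, so other short noncoding genes are the closer comparison. The 269 snoRNA genes, which in this species mostly lie in introns of Pol II host genes and are processed from their transcripts, had medians of 1.47, 0.93 and 0.54 in ISC/EBs, ECs and Sox21a. The 260 miRNA genes, also Pol II products, had 0.08, -0.01 and 0.08. All 717 other genes of up to 200 bp, which include the snoRNA and miRNA genes of that length, had 0.26, 0.03 and 0.11. Of these 717, 33.3%, 24.1% and 19.8% reached 1 in the 3 tracks. A level of exactly 0 was found for 91, 90 and 93 of them, against 1, 3 and 1 of the tRNA genes, which lowers their shares. The tRNA genes' share was thus above theirs in ISC/EBs and with Sox21a and below theirs in ECs on the deposited scale. Of the snoRNA genes, 33.1% reached 1 with Sox21a, close to the 32.9% of tRNA genes. tRNA genes thus lay below snoRNA genes and above miRNA genes in both Pol II tracks, and their Sox21a median was close to that of the snoRNA genes.

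Across tRNA genes the tracks ran together. Over the 295 genes, Pearson's r was 0.79 between the Pol II tracks, 0.81 between Pol II and Sox21a in ISC/EBs and 0.62 between EC Pol II and Sox21a. Over all genes it was 0.73, 0.82 and 0.59. These points share fragments and neighbourhoods and the same base composition in every track, so r is only a description. Of the 119 tRNA genes at or above 1 in ISC/EB Pol II, 84 were also at or above 1 with Sox21a (70.6%), compared with 44.7% of all genes that reached 1 in ISC/EB Pol II. The same share was 66.1% for miRNA genes, 51.0% for other genes of up to 200 bp and 45.7% for snoRNA genes. It was thus not particular to tRNA genes. Counted from the other side, 86.6% of the Sox21a-high tRNA genes were Pol II-high in ISC/EBs, against 93.1% of all Sox21a-high genes.

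The highest Pol II levels in ISC/EBs were at a cluster of tRNA-His genes and at a tRNA-Thr gene. The pseudogene tRNA:His-GTG-2-1Psi had 3.86, tRNA:His-GTG-1-4 had 3.71, tRNA:Thr-CGT-1-2 had 3.70, tRNA:His-GTG-1-3 had 3.51 and tRNA:Leu-AAG-1-1 had 3.38. All 5 also reached at least 2.25 in ECs and 1.74 with Sox21a. The His genes lie within 250 bp of CG8490 or CG34021, coding genes with ISC/EB levels of 3.34 and 3.53. tRNA:Thr-CGT-1-2 (3R, 20891122 to 20891193) lies 3259 bp from its nearest coding gene, Ktl, which had -0.14. The lowest levels in ISC/EBs were at tRNA:Ser-CGA-1-3 (-0.88) and tRNA:Arg-TCG-1-1 (-0.72), which are neighbours on X, at tRNA:Leu-TAA-3-1 (-0.58), at tRNA:Tyr-GTA-1-3 (-0.49) and at tRNA:Arg-TCG-3-4 (-0.41).

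In ECs the highest level was at tRNA:Leu-AAG-1-1, which lies inside pcs, with 3.34. It was followed by tRNA:Lys-CTT-1-1 inside EcR (2.77), tRNA:His-GTG-2-1Psi (2.66), tRNA:SeC-TCA-1-1 (2.65) and tRNA:His-GTG-1-4 (2.55). tRNA:SeC-TCA-1-1, the only gene for the tRNA that inserts selenocysteine, lies 27 bp from the trypsin gene iotaTry, which had 1.37 in ISC/EBs and 2.17 in ECs. Its own level was nearly the same in both populations on the deposited scale (2.54 in ISC/EBs), whereas the difference was -1.07 after centring and scaling. The lowest in ECs were tRNA:Asp-GTC-1-6 inside Sema1a (-0.62), tRNA:Arg-TCG-3-4 (-0.56), tRNA:Ser-AGA-3-2 (-0.50), tRNA:Ser-GCT-2-2 (-0.46) and tRNA:Ser-CGA-1-3 (-0.35). For Sox21a, tRNA:Val-CAC-2-5 inside the nicotinamidase gene Naam had 2.58, tRNA:Arg-TCT-1-1 2.42, tRNA:Thr-CGT-1-2 2.38, tRNA:Lys-CTT-1-1 2.37 and tRNA:His-GTG-1-3 2.26. At Naam itself the Sox21a level was 0.06, so the value of tRNA:Val-CAC-2-5 came from a short stretch of the gene. The lowest for Sox21a were tRNA:Arg-TCG-3-4 (-0.44), tRNA:Cys-GCA-4-1 (-0.40), tRNA:Thr-AGT-1-3 (-0.39), tRNA:Gly-GCC-1-1 (-0.33) and tRNA:Arg-TCG-1-1 (-0.33).

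On the deposited scale most tRNA genes had the higher Pol II level in ISC/EBs, but this direction depended on how the tracks were scaled. The level was higher in ISC/EBs at 246 of 295 tRNA genes (83.4%, with 65.3% of all genes), at 154 (52.2%, with 48.9%) after quantile normalization, and at 117 (39.7%, with 35.6%) after centring and scaling. Values spread more widely in the ISC/EB track (SD 0.856 over fragments, against 0.652 in ECs), and the median difference of all genes moved with the scaling, from 0.15 to -0.0063 and -0.21. Relative to that shift, the median difference of the tRNA genes was 0.084 on the deposited scale, 0.023 after quantile normalization and 0.066 after centring and scaling. A general excess of Pol II at tRNA genes of ISC/EBs beyond that of other genes was therefore small on each scale.

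At the level of single genes the differences were larger. In total 58 tRNA genes had at least 1 more in ISC/EBs (19.7%, with 9.89% of all genes), and 2 had at least 1 more in ECs (0.678%, with 2.66%). Among snoRNA genes 23.4% had at least 1 more in ISC/EBs, among miRNA genes 17.7% and among other genes of up to 200 bp 16.2%, so the share was near that of other short genes. After quantile normalization the count towards ISC/EBs was 14 (4.75%, with 3.25% of all genes) and that towards ECs 4 (1.36%, with 4.49%). After centring and scaling they were 22 (7.46%, with 3.92%) and 7 (2.37%, with 6.15%). On the deposited scale, 49 tRNA genes reached 1 in both Pol II tracks (16.6%, with 15.1%), 70 in ISC/EBs alone (23.7%, with 14.3%) and 4 in ECs alone (1.36%, with 3.76%).

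The 5 largest differences towards ISC/EBs were at tRNA:Leu-AAG-1-4, with 2.27 in ISC/EBs and -0.13 in ECs, tRNA:Gln-CTG-1-1 (2.46 and 0.16), tRNA:Thr-TGT-2-3 (1.87 and -0.31), tRNA:Arg-ACG-1-1 (3.0 and 0.82) and tRNA:Arg-TCG-2-4 (2.47 and 0.41). After quantile normalization they had differences of 1.99, 1.67, 1.82, 1.42 and 1.41, so each remained above 1. Of these, 4 lie inside coding genes, namely Mctp, a C2 domain membrane protein gene (1.99 and -0.12), mrj, a DnaJ co-chaperone gene (1.86 and 0.47), EcR, the ecdysone receptor gene (1.16 and 0.22), and pyd, the gene of a ZO-1 homolog of cell junctions (0.59 and -0.07). All 4 coding genes had the higher level in ISC/EBs as well on the deposited scale, as did 66.2% of all protein-coding genes. The mean of each of the 4 includes the fragments of its tRNA gene. tRNA:Thr-TGT-2-3 is the exception, 827 bp from Smyd4-3, which had -0.05 and -0.38.

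Towards ECs the largest differences were at a pair of tRNA-Tyr genes beside dpp, the BMP ligand gene. tRNA:Tyr-GTA-1-2 (2L, 2459924 to 2460044), 101 bp from dpp, had -0.00060 in ISC/EBs, 1.72 in ECs and -0.10 with Sox21a. tRNA:Tyr-GTA-1-3, 2770 bp from dpp, had -0.49, 0.998 and -0.20. Both values depend on how fragments are averaged, since the difference of tRNA:Tyr-GTA-1-2 was -0.85 in the fragment that holds most of the gene, and that of tRNA:Tyr-GTA-1-3 was -0.64 with an unweighted mean over fragments. The level of dpp itself was 0.05 in ISC/EBs and -0.04 in ECs, so the EC signal at these tRNA genes was not spread over that gene. The next were tRNA:Ala-AGC-2-10 inside CG14322 (1.39 and 2.26), tRNA:Trp-CCA-2-1 inside CG15431 (0.37 and 0.99) and tRNA:Tyr-GTA-2-1 inside the ABC transporter gene Abca3 (0.63 and 1.17, but 0.42 in ECs in the fragment that holds most of it). Abca3 was itself higher in ECs (0.16 and 0.96), whereas CG14322 (0.10 and 0.03) and CG15431 (-0.09 and -0.09) were near 0 in both. All 10 tRNA genes named for their differences kept their direction under both other scalings. Both scalings moved all 10 differences towards ECs, and the 10 were picked as the extremes, so their kept direction is little check of them. The 4 genes that reached 1 in ECs alone were tRNA:Tyr-GTA-1-2, tRNA:Tyr-GTA-2-1, tRNA:Ile-AAT-1-2 (0.61 and 1.03) and tRNA:Ala-AGC-2-7 (0.63 and 1.0), the last 2 named after their values were seen.

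The signal around tRNA genes reached beyond the gene, where most have another tRNA gene nearby. Over all 295, in ISC/EBs the median level was 0.59 at the gene, 0.73 at 250 to 500 bp from it, 0.64 at 500 to 1000 bp, 0.49 at 1 to 2 kb and 0.28 at 2 to 3 kb. In ECs it was 0.18 at the gene, 0.27 at 250 to 500 bp and 0.0031 at 1 to 2 kb, and for Sox21a 0.52, 0.65 and 0.50 at the same distances and 0.25 at 2 to 3 kb. The next 500 bp on each side thus had slightly higher medians than the tRNA gene in every track. The 77 single tRNA genes, with no other within 5 kb, had a narrower profile, with ISC/EB medians of 0.27 at the gene, 0.25 at 250 to 500 bp, 0.09 at 500 to 1000 bp and 0.03 at 1 to 2 kb. Compared with their own flanks at 1 to 3 kb, 191 tRNA genes were higher in ISC/EBs (64.7%, with 48.4% of all genes), 205 in ECs (69.5%, with 50.7%) and 183 with Sox21a (62.0%, with 46.4%). The excess over the flanks was at least 1 for 65 (22.0%, with 10.6%), 35 (11.9%, with 8.16%) and 41 (13.9%, with 5.63%). Short genes are the closer comparison here too. Of the snoRNA genes 54.3%, 52.0% and 49.4% were above their flanks, and of the other genes of up to 200 bp 47.6%, 47.1% and 43.4%. Both were below the tRNA genes in every track. An excess of at least 1 was found for 53, 45 and 30 of the 269 snoRNA genes, and for 86, 69 and 48 of the 717 other short genes. At that size the snoRNA share was somewhat below that of tRNA genes in ISC/EBs and with Sox21a and above it in ECs. The share of other short genes was lower in every track. The median excess of the tRNA genes was modest, 0.16 in ISC/EBs, 0.12 in ECs and 0.14 with Sox21a.

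**Figure D2:**
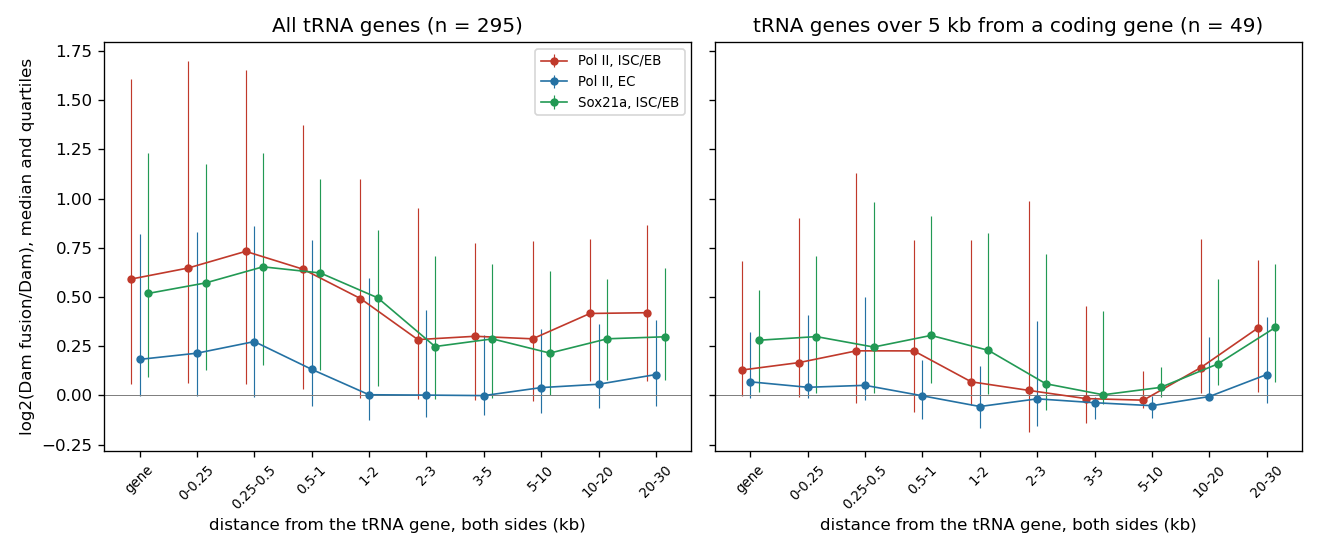
Median level (points) and quartiles (vertical lines) at the tRNA gene and at increasing distance from it, both sides averaged, for all 295 tRNA genes (left) and for the 49 that lie over 5 kb from any coding gene (right). In ISC/EBs the median of all tRNA genes goes from 0.59 at the gene to 0.28 at 2 to 3 kb, and that of the 49 distant genes from 0.13 to 0.03.

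The sharpest local signal was at tRNA:Thr-CGT-1-2, with 3.70 in ISC/EBs over flanks of 0.31 and 2.25 in ECs, 2.16 above its flanks. tRNA:Cys-GCA-1-3 and tRNA:Lys-CTT-1-12 in Cht7, each with 2.89 in ISC/EBs, and tRNA:Ser-CGA-1-1 on X, with 2.44, stood 2.63, 2.62 and 2.61 above their flanks. The opposite also occurred. The pair tRNA:Ser-TGA-1-1 and tRNA:Ser-TGA-2-1, which share their fragments, had 0.69 in ISC/EBs with mean flanks of 2.79 for the former and 2.21 for the latter, next to Fib, the gene of the nucleolar methyltransferase fibrillarin, and l(2)k09913. These genes were picked for their contrast with the flanks after the values were seen.

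tRNA genes with and without an overlapping coding gene had similar Pol II medians and differed somewhat more with Sox21a. The 137 overlapped by a protein-coding gene had medians of 0.63, 0.21 and 0.65 in ISC/EBs, ECs and Sox21a. Of these, 61, 28 and 54 reached 1 (44.5%, 20.4% and 39.4%). The 158 without had 0.52, 0.16 and 0.45, and 58, 25 and 43 reached 1 (36.7%, 15.8% and 27.2%). Over all genes the shares were 29.4%, 18.9% and 14.1%, so in ECs the 2 classes lay on either side. Strand and exons were not known, so overlap here does not tell an intron from an exon or an antisense position. What separated the tRNA genes more was distance. The 65 with a coding gene at 1 to 1000 bp but none overlapping had the highest medians, 1.13, 0.23 and 0.78, compared with 0.14, 0.03 and 0.17 for the 44 at over 1000 and up to 5000 bp and 0.13, 0.07 and 0.28 for the 49 further away. The order in ECs is among medians of 0.03 to 0.23 and thus small.

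tRNA genes followed the coding gene that overlaps them only in part. Over 137 pairs Pearson's r was 0.52 in ISC/EBs, 0.46 in ECs and 0.52 with Sox21a, where each coding gene includes the fragments of its tRNA gene and 74 coding genes stand for all 137. In ISC/EBs, 33 of 46 tRNA genes reached 1 when the coding gene had reached 1, and 28 of 91 when it had not. In ECs these were 3 of 7 and 25 of 130, and with Sox21a 25 of 35 and 29 of 102. The tRNA gene was above its coding gene in 87 of the 137 pairs in ISC/EBs, in 83 in ECs and in 92 with Sox21a.

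**Figure D3:**
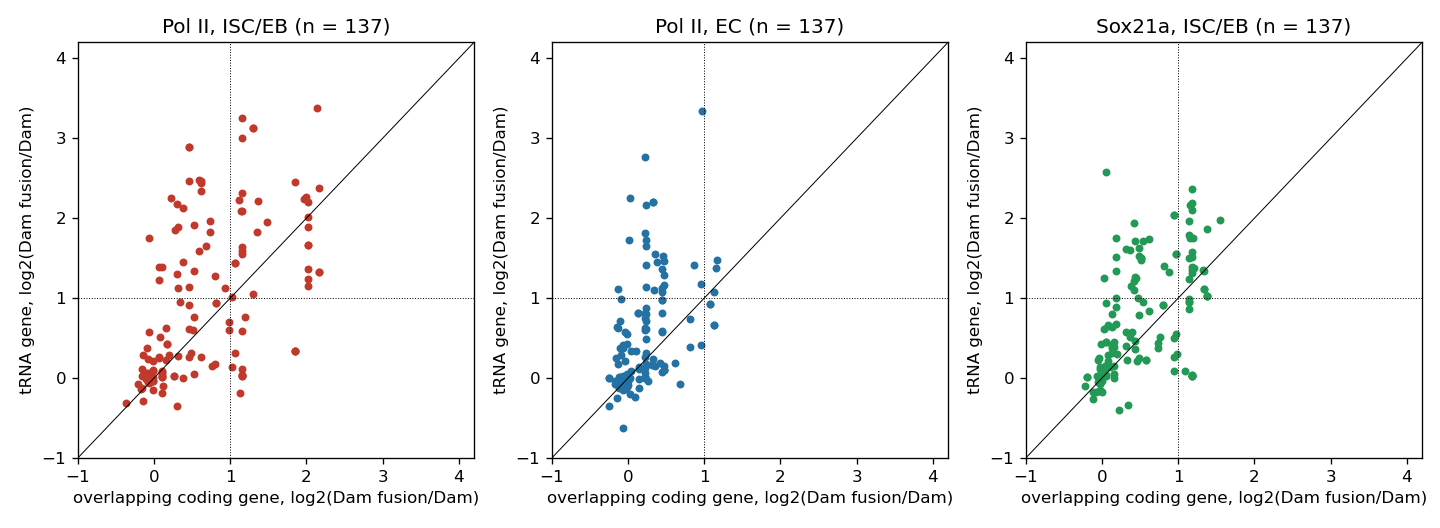
Level of each of the 137 overlapped tRNA genes (vertical) against the mean level of the coding gene that overlaps it (horizontal, the shortest where there are several), in the 3 tracks, log2 Dam fusion/Dam. The solid line marks equal levels and dotted lines a level of 1. In ISC/EBs 28 points lie above 1 at a coding gene below 1, and columns of points are tRNA genes of 1 coding gene.

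In total 19 of the 74 coding genes (25.7%) reached 1 in a Pol II track, compared with 34.7% of all protein-coding genes. EcR overlaps 13 tRNA genes, the most of any, and shows how far they can differ inside 1 gene. EcR had 1.16 in ISC/EBs, 0.22 in ECs and 1.18 with Sox21a. Of its 13 tRNA genes, 7 reached 1 in ISC/EBs, with tRNA:Lys-CTT-1-1 at 3.25 and tRNA:Arg-ACG-1-1 at 3.0, whereas tRNA:Asn-GTT-1-4 and tRNA:Asn-GTT-1-5, further along the gene, both had 0.02. tRNA:Lys-CTT-1-1 and tRNA:Arg-ACG-1-1 begin 207 bp apart, yet had 2.77 and 0.82 in ECs, where the latter had 1.26 with an unweighted mean over its fragments.

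ATP8A, a phospholipid flippase gene, had 2.02 in ISC/EBs but 0.24 in ECs. All 8 of its tRNA genes reached 1 in ISC/EBs (1.15 to 2.21). In ECs these 8 had 0.16 to 2.17, and 1 of them reached 1. Their differences went down to 0.04, so not all shared the difference of ATP8A. The adhesion gene caps (1.48 and 0.11) holds tRNA:Asp-GTC-1-10 at 1.95 and 0.34. gol, a ubiquitin ligase gene (1.29 and 0.33), holds tRNA:Ala-CGC-1-2 and tRNA:Ala-CGC-1-3, both at 3.12 and 2.21 in a shared fragment set, and tRNA:Ala-CGC-1-1 at 1.05 and 0.24. tRNA:Met-CAT-1-2 in Roc2, a cullin ligase subunit gene (1.15 and 0.47), had 2.09 and 1.30. In mrj, tRNA:Gln-CTG-1-1 had 2.46, but the 3 tRNA-Glu genes that share their fragments further along had 0.34.

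Of the 19, 4 reached 1 in both Pol II tracks, namely jar, CG31248, p and CG8036. tRNA:Leu-TAA-4-1 in jar, the myosin VI gene (1.35 and 1.17), had 1.83 and 1.48. tRNA:Gly-TCC-1-1 in CG31248 (1.97 and 1.16) had 2.24 and 1.38. The 3 tRNA-Tyr genes in p and CG8036 had 1.33 to 2.38 in ISC/EBs and 0.66 to 1.08 in ECs, where 1 of them reached 1. Some coding genes that reached 1 in ISC/EBs alone held a tRNA gene above 1 in both. tRNA:Leu-AAG-1-1 in pcs (2.13 and 0.97) had 3.38 and 3.34, tRNA:Thr-AGT-1-4 in CG31279 (1.37 and 0.86) had 2.22 and 1.41, and tRNA:Gln-TTG-2-1 in CG12535 (1.11 and 0.34) had 2.22 and 1.10. In others the tRNA gene was lower. tRNA:iMet-CAT-1-3 in hng3 (1.13 and 0.69) had -0.19 and -0.07, tRNA:Met-CAT-1-4 in Golgin104 (1.20 and 0.61) had 0.76 and 0.19, and the 2 tRNA-Pro genes in osp (1.02 and -0.02) had 0.14 and 1.01 in ISC/EBs. In tkv, the type I BMP receptor gene and the one of the 19 that reached 1 in ECs alone (0.81 and 1.07), tRNA:Asp-GTC-2-1 and tRNA:Asp-GTC-1-1 share fragments and had 0.94 and 0.93. The remaining coding genes that reached 1 are Sarm, described with its cluster, and Mctp.

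Several high tRNA genes lay in coding genes that were themselves below 1 in both Pol II tracks, here named after their values were seen. tRNA:Ala-AGC-2-1 had 2.26 in ISC/EBs and 1.73 in ECs inside nmo, a MAP kinase-like gene of 0.23 and 0.01. tRNA:Ser-CGA-1-4, tRNA:Val-AAC-2-1 and tRNA:Val-AAC-2-2 had 2.34 to 2.46 and 1.42 to 1.72 inside the adducin gene hts (0.61 and 0.24). tRNA:iMet-CAT-1-4 and tRNA:iMet-CAT-1-5, genes of the initiator tRNA, had 1.39 and 1.23 in ISC/EBs inside ome (0.06). In each case the coding gene is a mean over a longer span than the tRNA gene.

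Among the 49 tRNA genes over 5 kb from any coding gene, 11 reached 1 in ISC/EBs (22.4%), 4 of them also in ECs (8.16%), both below the shares over all genes (29.4% and 18.9%). tRNA:Glu-TTC-1-4 and tRNA:Glu-TTC-1-5 on 2R had 2.96 and 2.30 in ISC/EBs, 2.28 and 2.21 in ECs and 1.88 and 2.24 with Sox21a. The nearest coding gene, CG8517, lies 11274 and 12592 bp away and had 0.85, -0.20 and 1.02. tRNA:iMet-CAT-1-2 beside them had 1.42 and 1.01. On 2L, tRNA:Gly-GCC-1-6 had 2.10 in ISC/EBs, 1.76 in ECs and 0.01 with Sox21a, 5621 bp from CG33648 (0.05 and -0.0014). Noncoding Pol II genes near these positions were not searched for.

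Clusters were formed by chaining tRNA genes less than 5 kb apart. There were 69 clusters with 218 genes and 77 single genes, and 11 clusters had at least 5 members (78 genes). Single tRNA genes had medians of 0.27, 0.01 and 0.27 in ISC/EBs, ECs and Sox21a, and clustered ones 0.68, 0.24 and 0.62. Over all genes the medians were 0.30, 0.01 and 0.10, so single tRNA genes were above them with Sox21a only. Of the single ones 29.9%, 18.2% and 24.7% reached 1, and of the clustered ones 44.0%, 17.9% and 35.8% (29.4%, 18.9% and 14.1% of all genes). tRNA genes of 1 cluster were closer to each other in level than genes of 1 anticodon. Over the 218 clustered genes, differences within clusters made up 33.1% of the sum of squares in ISC/EBs, 34.6% in ECs and 32.7% with Sox21a, whereas differences within genes of 1 anticodon made up 73.4%, 71.1% and 76.9% (294 genes of 44 anticodons). The 69 clusters are smaller groups than the 44 anticodons, and neighbours share or adjoin fragments, both of which lower the share within clusters by construction.

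**Figure D4:**
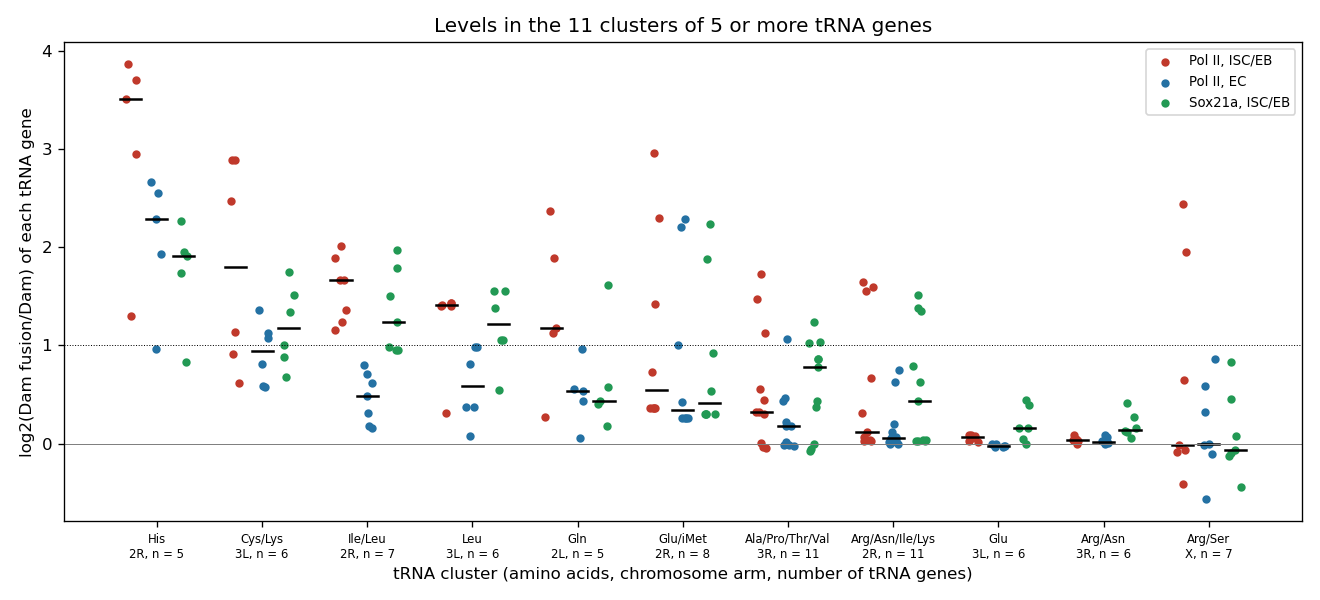
Level (log2 Dam fusion/Dam) of each tRNA gene in the 11 clusters of at least 5 tRNA genes, ordered by their ISC/EB Pol II median (bars are medians, the dotted line is 1). ISC/EB medians go from 3.51 in the His cluster on 2R to -0.02 in the Arg/Ser cluster on X, and 2 clusters lie near 0 throughout in both Pol II tracks.

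The His-GTG cluster on 2R (12333926 to 12336804) had the highest median of the 11 in each track. Its 5 genes, 1 of them a pseudogene, had 1.30, 2.95, 3.51, 3.71 and 3.86 along the chromosome in ISC/EBs and 0.96, 1.93, 2.29, 2.55 and 2.66 in ECs. With Sox21a they had 0.84, 1.95, 2.26, 1.91 and 1.74. The first gene lies 66 bp from garz, which had -0.10 in ISC/EBs, and the last ones beside CG8490 and CG34021. The sixth His gene, tRNA:His-GTG-1-5, lies elsewhere on 2R and had 1.36, 0.93 and 0.26. It was thus near the lowest copy of the cluster.

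Of the clusters inside coding genes, that of Cys and Lys genes in the chitinase gene Cht7 (3L, 3095737 to 3097590) had a median of 1.80 in ISC/EBs, 0.95 in ECs and 1.17 with Sox21a. Its 6 genes ranged from 0.62 to 2.89 in ISC/EBs within less than 2 kb, and Cht7 itself had 0.46. The 7 Ile and Leu genes in ATP8A (2R, 13430282 to 13432794) had a median of 1.66 in ISC/EBs, 0.49 in ECs and 1.24 with Sox21a, and all 7 were above 1 in ISC/EBs while none reached 1 in ECs. They were higher in ISC/EBs under all 3 scalings. Other clusters lie only in part inside a coding gene. The 6 Leu-CAG genes at Sarm, an NADase gene of axon degeneration (3L, 8060214 to 8068290), had medians of 1.41, 0.59 and 1.22. Sarm overlaps 3 of them and had 1.07, 0.45 and 0.97 itself. The 5 Gln-CTG genes at CG4238 (2L, 2009155 to 2013250) had 1.18, 0.54 and 0.43, and CG4238 overlaps 3 of them.

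The cluster of 8 iMet and Glu genes on 2R (19725620 to 19729353), at least 10752 bp from any coding gene, was split. Its first 4 genes had 0.73, 1.42, 2.96 and 2.30 in ISC/EBs, and the other 4, which share 1 fragment set, had 0.36. In ECs the first 4 had 0.43, 1.01, 2.28 and 2.21. All 8 had the higher level in ISC/EBs on the deposited scale and none did after quantile normalization or after centring and scaling. The 7 Arg and Ser genes on X (14014814 to 14017284) had a like profile. tRNA:Arg-TCG-2-1 and tRNA:Ser-CGA-1-1 at one end had 1.96 and 2.44 in ISC/EBs but -0.09 and -0.13 with Sox21a, and the 4 at the other end lay between -0.41 and -0.02 in ISC/EBs. As at tRNA:Gly-GCC-1-6, Pol II was thus high while Sox21a was near 0.

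The 2 largest clusters, of 11 genes each, were mixed. The one in and beside EcR (2R, 6161535 to 6171759) had a median of 0.12 in ISC/EBs, 0.06 in ECs and 0.43 with Sox21a, and 3 neighbours reached 1 in ISC/EBs (tRNA:Lys-CTT-1-3 with 1.64, tRNA:Lys-CTT-1-4 with 1.59 and tRNA:Ile-AAT-1-1 with 1.56). The one on 3R (17617761 to 17631750), of Ala, Pro, Thr and Val genes, had 0.33, 0.18 and 0.78, with tRNA:Thr-AGT-1-5 highest at 1.73. Ptp61F, a tyrosine phosphatase gene, holds 9 Glu-CTC genes, of which 2 reached 1 in ISC/EBs. A cluster of 6 of them (3L, 1397695 to 1401852), lay between 0.01 and 0.08 in ISC/EBs and between -0.03 and 0 in ECs. The 6 Arg and Asn genes on 3R (8139533 to 8141042) lay between 0 and 0.09 in ISC/EBs. In these flat clusters the median Sox21a levels were 0.16 and 0.14.

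Genes for the same tRNA spanned most of the range. Over anticodons with at least 2 genes the median range was 2.30 in ISC/EBs, 1.61 in ECs and 1.70 with Sox21a. Among 13 Lys-CTT genes in 6 loci the ISC/EB level went from 0.04 to 3.25, among 10 Arg-ACG genes in 4 loci from 0 to 3.0, and among 12 Ala-AGC genes from -0.19 to 2.26. By amino acid, the highest ISC/EB medians were those of His (3.23, 6 genes), Ile (1.61, 12 genes, 11 of them at or above 1), Gln (1.54, 12 genes) and Leu (1.32, 22 genes), apart from the single SeC gene. The lowest were those of Asn (0.04, 10 genes), Arg (0.04, 26 genes) and Ser (0.12, 20 genes). On the deposited scale the EC median was the higher one for Tyr (0.17 in ISC/EBs and 0.66 in ECs) and Asp (0.42 and 0.45), although the median of the differences gene by gene was 0.04 and 0.07. Of the 6 His genes 5 lie in 1 cluster, as do 5 of the 12 Ile genes, so a class is not independent of position. On arms, the ISC/EB median was 1.10 on 2R, 0.62 on 3L, 0.58 on 2L, 0.42 on 3R and 0.05 on X.

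**Figure D5:**
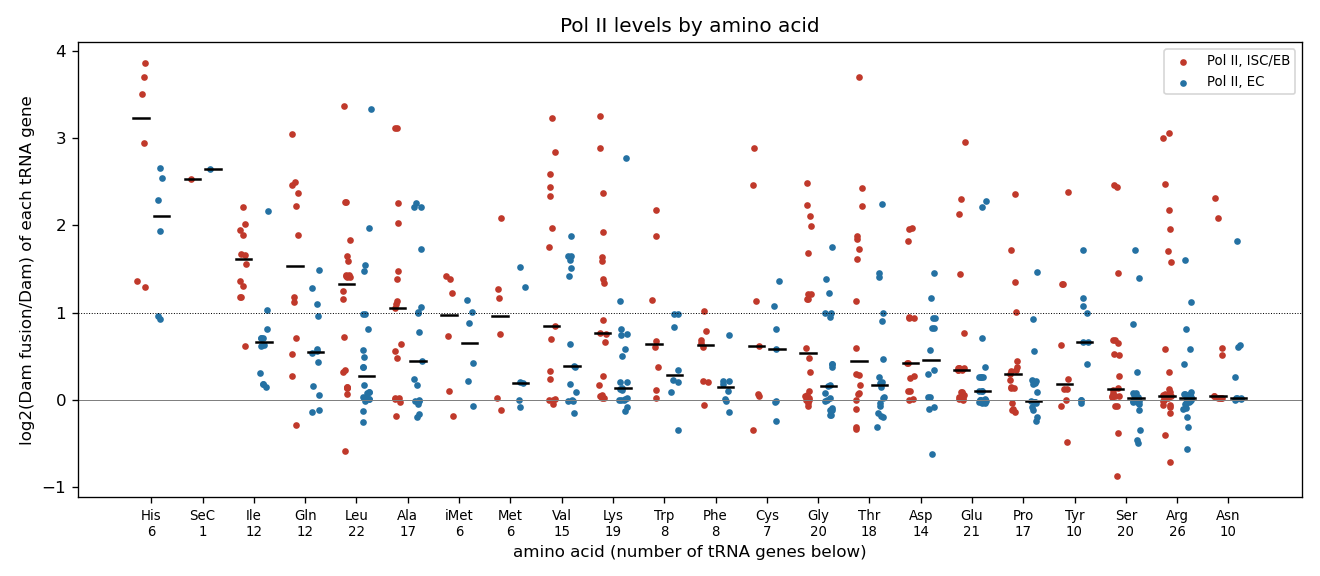
Pol II level (log2 Dam fusion/Dam) of each tRNA gene in ISC/EBs (red) and ECs (blue) by amino acid, ordered by the ISC/EB median (bars are medians, the dotted line is 1). Medians in ISC/EBs go from 3.23 for the 6 His genes to 0.04 for the 10 Asn genes, while single Asn and Arg genes still reach 2.31 and 3.06.

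Sox21a was high at tRNA genes more often than it formed a peak there. Of the 295 tRNA genes, 27 (9.15%) were overlapped by 1 of the deposited Sox21a peaks, in 19 peaks, compared with 17.4% of all genes and 9.34% of the other genes of up to 200 bp. The short genes are the closer comparison in length. Of the 97 tRNA genes with a Sox21a level of at least 1, 24 (24.7%) were in a peak, against 64.8% of all genes, 46.5% of other genes of up to 200 bp and 37.1% of snoRNA genes at that level. By score, the top peaks were those over tRNA:Val-TAC-1-1 and tRNA:Val-TAC-1-2 on 3L (2.86), tRNA:Thr-AGT-1-1 in tai, the gene of a coactivator of EcR (2.69), tRNA:Leu-AAG-1-4 in Mctp (2.55), tRNA:Leu-AAG-1-1 in pcs (2.53) and tRNA:Tyr-GTA-1-8 in p and CG8036 (2.45). A peak can be much wider than the tRNA gene. tRNA:Val-TAC-1-1 and tRNA:Val-TAC-1-2, whose starts are 319 bp apart in the same peak, had Sox21a levels of 2.20 and 0.54. In all, 17 of the 27 lie on 2R, 5 of them in ATP8A and 2 in the His cluster.

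Genes that make and handle tRNA are ordinary Pol II genes, for which the tracks measure Pol II along the gene itself. In a list of 56 of them, chosen for function and with earlier results of these data known, the median was 0.98 in ISC/EBs, 0.31 in ECs and 0.12 with Sox21a, compared with 0.39, 0.06 and 0.11 over all protein-coding genes. Of these 56, 27 reached 1 in ISC/EBs (48.2%, with 30.5% of protein-coding genes), 7 in ECs (12.5%, with 19.8%) and 6 with Sox21a (10.7%, with 12.9%). The level was higher in ISC/EBs for 53 on the deposited scale (94.6%, with 66.2% of protein-coding genes), for 43 after quantile normalization (76.8%, with 48.9% of all genes) and for 40 after centring and scaling (71.4%, with 35.6%). On the deposited scale 7 had at least 1 more in ISC/EBs (12.5%, with 8.94% of protein-coding genes) and 1 in ECs (1.79%, with 2.95%). Relative to the median of all genes the median difference was 0.40, 0.20 and 0.34 on these scales.

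By role, the 26 genes of Pol III subunits and its factors had medians of 1.14, 0.36 and 0.16 in ISC/EBs, ECs and Sox21a, and 15 reached 1 in ISC/EBs. Not all of the 26 are specific to Pol III or to tRNA genes. Polr1C, Polr1D, Polr2E, Polr2F, Polr2H, Polr2K and Polr2L are subunits shared with other polymerases. Tbp, Pbp45, Pbp49 and Pbp95 act at other genes, and no role of theirs at tRNA genes is assumed here. The highest of the 26 were Polr3I (2.30 in ISC/EBs and 1.53 in ECs) and Polr3G (2.27 and 2.08), both Pol III subunits. The lowest were Maf1, the repressor of Pol III (0.01 and -0.16), and Polr3A, the largest subunit (0.03 and 1.34). Polr3A had the one difference of at least 1 towards ECs. The largest differences towards ISC/EBs were at Polr1D, a subunit shared with Pol I (1.38 and -0.03), and at RNaseZ, which trims the 3′ ends of tRNA precursors (1.78 and 0.37). RtcB, the tRNA ligase gene, was next to Polr3A at the other end (0.34 and 0.74). Of these genes, Polr3A overlaps CG8952, Polr3I overlaps DENR and Polr1D overlaps DCTN6-p27 and brat, and the signals of overlapping genes cannot be separated. The same limit holds for others that reached 1 in ISC/EBs, namely Polr3E, Polr3K, Polr1C, Polr2L, Tbp, Pbp49 and Pbp45. Polr3D, Polr3F, Polr3G, Polr2F, Polr2K and La reached 1 with no overlapping coding gene. The 10 genes of processing and modification had 1.07, 0.35 and 0.56. The 20 synthetase genes had 0.67, 0.29 and -0.11. Of these 20, 7 reached 1 in ISC/EBs, close to the share of protein-coding genes (30.5%). In ECs 1 of 20 did and with Sox21a 1 of 20, below the 19.8% and 12.9% of protein-coding genes. Both times this was AspRS (1.77, 1.79 and 1.29), which overlaps Nmda1.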

How the data were processed

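Targeted DamID of adult midguts was analysed from 3 tracks. The authors computed the log2 ratio of Dam fusion to Dam alone for each GATC fragment and deposited its average over samples, with a list of 2769 Sox21a peaks whose scores are on the same deposited log2 scale. Not given in the sources used here: which aligner, genome build, library normalization and peak caller were applied. No column held single samples, so depth was not determined and no interval could be given. The FDR text of the peak list was not used.

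Gene positions were those of the RefSeq gene table of Release 6, which gives no strand or exons. Marker genes were used to check the placement. The level of a gene was the mean log2 ratio over its bases, a threshold of 1 was used for levels and differences, clusters were chains with gaps of at most 5000 bp, and flanks were the means of both sides at 1000 to 3000 bp. Reads of neighbouring tRNA genes in 1 fragment cannot be told apart. The tRNA, Pol III and marker lists and the thresholds were chosen with earlier results of these data known. Named were the clusters of at least 5 tRNA genes, the 5 highest and lowest tRNA genes of each track and of the difference, those in coding genes that reached 1 in a Pol II track, the 5 highest-scored peaks, and the 2 Pol III and tRNA metabolism genes at each end by level and difference. Others are said to be chosen after their values were seen. Dl had no match in the gene table and was not analysed here. Gene means were tested on simulated data, and 200 of 200 genes were recovered. Alternatives changed the averaging, fragments, scaling, thresholds, cluster gap, flanks, peaks and genes included. Scripts ran in Python 3.11.15 with pandas 2.3.3, numpy 2.4.6, matplotlib 3.10.9 and scipy 1.17.1.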

Additional observations from a re-analysis of the deposited data

How the results depend on the processing

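No paired analysis was possible because each deposited track is an average over samples, and for the same reason no replicate could be left out. Of 195 values recomputed for 23 results, 147 kept their direction and stayed close, 47 moved and 1 reversed. The cause was not tested except where a setting removes genes or changes a threshold. The scaling of the tracks mattered most. Quantile normalization gave an EC median of 0.40 with 84 tRNA genes at or above 1, and a median difference of 0.017 with 14 genes towards ISC/EBs, 4 towards ECs and 154 higher in ISC/EBs. Centring and scaling gave medians of 0.29 in ISC/EBs and 0.65 with Sox21a and 80 genes at or above 1 in ECs, and reversed the median difference to -0.14, with 22 and 7 genes and 117 higher in ISC/EBs. A window of 500 bp on each side gave an ISC/EB median of 0.73, an EC median of 0.25 and 23.2%, 19.8% and 25.2% of the spread within clusters in ISC/EBs, ECs and Sox21a. The count of 2 towards ECs was 1 with that window, the unweighted mean, the fragment holding most of the gene or fragments of 100 to 2000 bp. A cluster gap of 20 kb gave 48.7%, 50.3% and 47.8% within clusters. A threshold of 1.5-fold gave 97 genes in ECs and 99 and 4 for the difference, and a threshold of 1.5 on the log2 scale 78, 28 and 46 in the 3 tracks and 20 and 1. Counting coding genes within 1 kb as overlapping gave a gap of 0.68 between the classes in ISC/EBs. Flanks at 0.5 to 1 kb gave median excesses of 0.044, 0.035 and 0.0068, and those at 3 to 10 kb 0.22 with Sox21a. Among the 87 tRNA genes with no other within 3 kb, 63, 64 and 59 were above their flanks. A peak within 1 kb was found for 46. Without the 100 tRNA genes of arm 2R, a setting added after seeing the data, the counts at or above 1 were 67, 32 and 51. Of those 100, 52, 21 and 46 had reached 1. The EC median without them was 0.10, 31 genes had at least 1 more in ISC/EBs and 154 were higher there. Without the pseudogenes or either cluster of 11 nothing moved. Depth was not determined, so it is unknown which small levels it limits.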
